A study of Populus ussuriensis with 18 samples.

Results

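The data described here are the levels of 4 transcripts that encode growth and meristem regulators in the roots of *Populus ussuriensis*, out of 12994 transcripts in the expression table. They are the auxin repressor IAA14 (f2p60_1260_27281), the TCP family factor TCP4 (f2p21_2379_20693), MADS-box transcription factor 18 (f2p60_940_30685, MADS18 below) and homeodomain protein SBH1 (f2p60_1398_7750). They were picked by transcript ID with their time courses already known, so their levels and changes are given as a description, without a test. Names are those of the closest annotated protein, from *Arabidopsis* for IAA14 and TCP4, rice for MADS18 and soybean for SBH1, whose closest protein in a wider database search was the poplar ARBORKNOX1.

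Wild-type seedlings from tissue culture, 3 weeks old, were moved to liquid medium with 6% polyethylene glycol (PEG), a polymer that lowers the water available to roots. Roots were taken at 5 times, 6 to 120 h after the move, and the reference was roots taken at 0 h. Each of the 6 times had 3 replicates, for 18 RNA-seq libraries in all. Each replicate was a pool of at least 6 seedlings, so the spread given below is a spread between pools. The labels give the PEG agent for the 0 h samples too, and no seedlings were kept in liquid medium without PEG, so the effect of PEG and that of the transfer and of time in the medium cannot be told apart.

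These proteins act at the switch between growth and differentiation. Aux/IAA proteins bind auxin response factors and hold auxin-responsive genes silent until auxin causes their own breakdown, and in *Arabidopsis* a stabilized IAA14 blocks the start of lateral roots. TCP4 belongs to the TCP factors that limit cell proliferation and promote differentiation in *Arabidopsis* leaves, and its mRNA is a target of the microRNA miR319. MADS18 of rice belongs to the group of MADS-box factors best known from floral meristem identity. SBH1 is a KNOX protein of the class that keeps cells of the shoot meristem undifferentiated, and KNOX proteins work as pairs with BELL homeodomain proteins.

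Levels are in FPKM, a measure of abundance corrected for transcript length and for library size. Changes are differences of mean log2(FPKM + 1) from 0 h, a scale that understates the change of low transcripts. The summed FPKM of a library was 1067374 to 1159874, and between 865 and 1016 transcripts were listed at 0. The mean correlation of a library with the others of its time was 0.961 to 0.979, lowest for replicate 3 at 48 h. Values at 48 h are therefore given with and without that library, or for each library, where it decides them. Root markers, 7 transcripts for nitrate and ammonium transporters and the suberin enzyme CYP86A1, summed to 363 to 1565 FPKM, lowest at 6, 12 and 24 h, and none was at 0 throughout. The 19 transcripts of photosystem and chlorophyll proteins were also present, with sums of 1023 to 4561 FPKM. In bulk RNA, fewer cells of a type and less RNA per cell cannot be told apart.

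IAA14, TCP4 and MADS18 stood lowest at 6 or 12 h in PEG, while SBH1 was above its 0 h libraries from 12 h on and highest at 48 h. At 6 h, IAA14, TCP4 and MADS18 were lower than at 0 h by more than 1 on the log2 scale, which means that 3 of the 4 changed this far downward, and 5.99% of the 12080 transcripts tested did so (7.73% changed as far upward). At 12 h, 2 of the 4, IAA14 and MADS18, were lower by that much, against a background of 4.21% lower and 6.56% higher. At 24 and 120 h, SBH1 was the 1 regulator past this size, higher in both cases, as were 5.01% of all tested transcripts at 24 h (2.75% lower) and 3.14% at 120 h (3.07% lower). At 48 h, SBH1 was higher and IAA14 lower by more than 1, with backgrounds of 3.76% higher and 2.65% lower. In 17 of the 20 combinations of regulator and time, the 3 PEG libraries lay wholly outside the range of the 0 h libraries, which is common in these data. All 3 libraries lay below 0 h for 33.8% of the tested transcripts at 6 h, 36.5% at 12 h, 25.7% at 24 h, 23.8% at 48 h and 26.7% at 120 h, and all 3 lay above it for 35%, 30.9%, 27.4%, 21.3% and 20.4% at the same times. Nothing is read from these shares, since the 4 regulators were chosen on the same libraries. SBH1 also entered the tested set through PEG libraries alone.

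**Figure D1:**
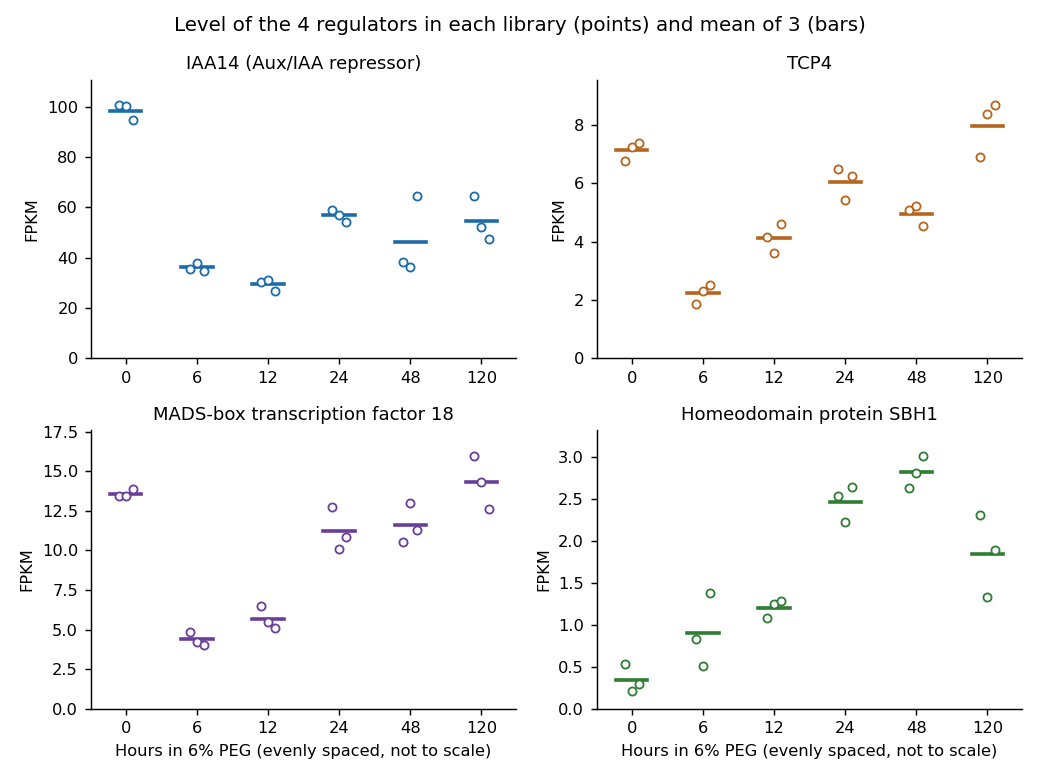
FPKM of IAA14, TCP4, MADS18 and SBH1 in each of the 18 libraries (open points) by hours in 6% PEG, with the mean of 3 as a bar; the time axis is evenly spaced and each panel has its own scale. IAA14 stays below its 0 h libraries throughout, TCP4 and MADS18 are lowest at 6 h and overlap 0 h at 120 h, and SBH1 is highest at 48 h with 2.63 to 3.01 FPKM.

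IAA14 was the most abundant of the 4 regulators at 0 h, with 101, 100.3 and 94.7 FPKM (98.6 ± 3.38, SD, n = 3). Its libraries read 35.7, 37.9 and 34.8 FPKM at 6 h and 30.4, 31.1 and 26.7 FPKM at 12 h. At 24 h they read 59.0, 57.2 and 54.4 FPKM. None of these 9 libraries came near the 0 h range, and the lowest mean, at 12 h, was 29.8% of that at 0 h.

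At 48 h the IAA14 libraries read 38.4, 36.3 and 64.6 FPKM, and at 120 h 64.46, 52.04 and 47.34 FPKM. Replicate 3 at 48 h thus stood well above its 2 partners, though still below 0 h. The changes from 0 h were -1.42 at 6 h, -1.72 at 12 h and -0.78 at 24 h, then -1.12 at 48 h and -0.85 at 120 h. With replicate 3 left out, the change at 48 h was -1.38, and with replicate 2 left out it was -0.97. From low to high the mean levels ran 12, 6, 48, 120, 24 and 0 h. The libraries of 12 and 6 h did not overlap, nor did those of 24 and 0 h, whereas 6 and 48 h, 48 and 120 h, and 120 and 24 h overlapped. Among all tested transcripts, 281 lay further down than IAA14 at 6 h (2.33%) and 1.01% did so at 12 h.

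The other Aux/IAA transcripts measured were 4 with auxin-induced protein names (AUX28 and 3 named 22B), IAA13 and IAA27. A call below means an adjusted p under 0.05 in limma and an absolute log2 change of at least 1. All 6 were in the study's own list of transcription factors that changed in these libraries, so their counts are not independent evidence. At 6 h, 1 of the 6 rose and 2 fell, where 12.3% of all tested transcripts were called (7% higher and 5.34% lower). At 12 h, 5 of the 6 fell and none rose, against 9.32% called over all transcripts (5.73% higher and 3.59% lower), and the median change of the list was -1.48 beside -0.04 for all transcripts. At 24 h none was called (4 of 6 had an unadjusted limma p under 0.05, all lower), where 6.24% of all transcripts were (4.43% higher and 1.81% lower). At 48 h 1 fell, against 5.08% (3.23% higher and 1.85% lower), and at 120 h none was called, against 4.74% (2.59% higher and 2.14% lower), though all 6 were lower with an unadjusted limma p under 0.05. The count at 120 h became 1 lower, AUX28, without replicate 1 of 0 h (-1.01) or replicate 2 of 120 h (-1.04).

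AUX28 (f2p60_1238_27497) was the 1 of them called at 3 times. It had 11.5, 10.3 and 9.93 FPKM at 6 h and 9.04, 8.37 and 7.03 FPKM at 12 h, against 24.5, 30.7 and 27.6 FPKM at 0 h, and the groups did not overlap. The changes were -1.30 (SE 0.17, limma adjusted p = 9.24e-06) at 6 h and -1.64 (SE 0.17, adjusted p = 1.1e-06) at 12 h. At 48 h its libraries read 10.4, 9.45 and 15.8 FPKM, replicate 3 again being highest, for a change of -1.18 (limma adjusted p = 8.14e-05).

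The most abundant 22B transcript (f2p60_1154_28359) had 36.1, 38.3 and 41.2 FPKM at 6 h and 25.9, 24.8 and 26.7 FPKM at 12 h, against 83.6, 79.7 and 87.4 FPKM at 0 h. It fell by 1.10 at 6 h and by 1.66 at 12 h on the log2 scale (limma adjusted p = 4.89e-06 and 8.69e-08). The other two 22B transcripts were called at 12 h alone. At 3 other times each they had an adjusted p under 0.05 with a change smaller than 1. f2p35_1291_8541 averaged 7.79 ± 0.646 FPKM at 12 h and 28.8 ± 1.16 FPKM at 0 h (SD, n = 3 each), and f3p60_1198_27882 averaged 5.21 ± 1.14 FPKM at 12 h and 13.2 ± 1.02 FPKM at 0 h. IAA13 was likewise called at 12 h, with 18.8 ± 0.914 FPKM against 48.1 ± 1.29 FPKM at 0 h (SD, n = 3 each). It was lower at 6, 24, 48 and 120 h too, with changes between -0.83 and -0.42 and a limma adjusted p under 0.05 each time. The reads of such related transcripts may be shared out among them by the quantification, so the split between the 22B transcripts is uncertain.

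IAA27 (f4p60_1581_24629) took the other course. Its libraries had 32.02, 31.59 and 33.51 FPKM at 6 h, against 13.2, 12.8 and 14.2 FPKM at 0 h, a change of 1.22 (SE 0.06, limma adjusted p = 2.09e-10). At 12 h it stood at 12.1, 11.4 and 11.9 FPKM, below each 0 h library but with a change of only -0.17.

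**Figure D2:**
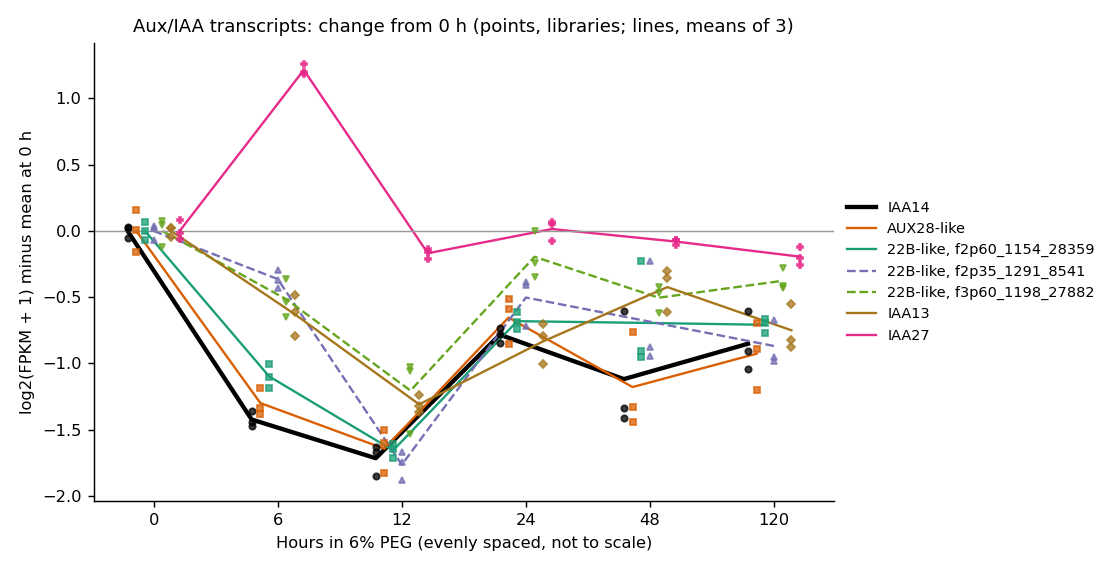
Change of IAA14 (thick black line) and 6 other Aux/IAA transcripts from their mean at 0 h on the log2(FPKM + 1) scale, by hours in 6% PEG (evenly spaced); points are libraries and lines join means of 3. All but IAA27 are lowest at 12 h, between -1.21 and -1.76, and IAA27 peaks at 1.22 at 6 h; replicate 3 at 48 h lies above its partners for IAA14, AUX28 and 2 of the 22B transcripts.

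Transcripts that make, carry or respond to auxin were less uniform. Of 12 measured, 3 were called higher and 5 lower at 1 or more times, and 18.5% of all tested transcripts were called at 1 or more times. The 6 ABCB transcripts, a family that includes auxin carriers in *Arabidopsis*, were taken from an annotation table and not from a list of changed genes. Of these 6, ABCB21 (f3p22_4425_219) and ABCB19 (f3p28_3480_18620) were called lower and 4 were not called. The change was above 0 for 2 of the 6 at 6 and 12 h and for 1 at each later time. The highest change at a time lay between 0.59 (12 h) and 0.72 (48 h). ABCB21 had 38.4, 46.6 and 46.0 FPKM at 6 h and 44.0, 40.7 and 44.3 FPKM at 12 h, against 94.4, 101.7 and 99.5 FPKM at 0 h. ABCB19, a carrier of the polar auxin stream in *Arabidopsis*, had 5.67, 5.47 and 5.59 FPKM at 12 h, against 12.6, 13.7 and 13.2 FPKM at 0 h (change -1.11, limma adjusted p = 3.99e-08).

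The other 6 auxin transcripts came from the study's list of changed genes, and all 6 were called. AIR12, a protein named for its induction by auxin in root cultures, had 179, 161 and 174 FPKM at 6 h, against 30.8, 27.4 and 30.7 FPKM at 0 h, a change of 2.49 (SE 0.20, limma adjusted p = 8.03e-08). It was also called higher at 12 h (1.34) and 24 h (1.10). The 2 amidase 1 transcripts, for an enzyme that releases indole-3-acetic acid from its amide in *Arabidopsis*, rose later. f4p60_1522_25005 changed by 1.03 at 12 h, 1.44 at 24 h and 1.2 at 120 h, and f3p60_1524_7045 by 1.19 at 24 h and 1.06 at 120 h. The call of f4p60_1522_25005 at 12 h ended without replicate 2 of 0 h or without replicate 1 or 3 of 12 h (0.93 to 0.99). That of f3p60_1524_7045 at 120 h ended without replicate 2 of 0 h or without replicate 2 or 3 of 120 h (0.89 to 0.98). Indole-3-acetaldehyde oxidase (-1.05) and both auxin-repressed proteins (f3p60_804_32451, -1.42, and f4p60_1131_9947, -1.11) fell at 6 h.

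TCP4 was a low transcript, above only 14.6% of the tested transcripts by its mean at 0 h. Its libraries read 1.86, 2.31 and 2.51 FPKM at 6 h and 4.17, 3.62 and 4.62 FPKM at 12 h, against 6.77, 7.26 and 7.37 FPKM at 0 h. Neither time overlapped 0 h, and the 6 h libraries lay below all those of 12 h. It read 6.5, 5.43 and 6.25 FPKM at 24 h, 5.07, 5.21 and 4.53 FPKM at 48 h and 6.89, 8.38 and 8.69 FPKM at 120 h. The 24 and 48 h libraries were still below those of 0 h, and the 120 h libraries overlapped them.

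The changes of TCP4 were -1.34 at 6 h, -0.67 at 12 h, -0.21 at 24 h, -0.46 at 48 h and 0.14 at 120 h. Its mean at 6 h was 31.2% of that at 0 h. In order of level the times ran 6, 12, 48, 24, 0 and 120 h, and in this order 12 and 48 h overlapped, as did 0 and 120 h. TCP4 was the only TCP transcript among the names at hand, so no relative could be set beside it.

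MADS18 read 4.88, 4.25 and 4.01 FPKM at 6 h and 6.48, 5.51 and 5.12 FPKM at 12 h, against 13.5, 13.4 and 13.9 FPKM at 0 h. The libraries of 6, 12 and 0 h formed 3 separate ranges. Later values were 12.8, 10.1 and 10.9 FPKM at 24 h, 10.56, 12.97 and 11.27 FPKM at 48 h and 16.0, 14.3 and 12.6 FPKM at 120 h. The 24 and 48 h libraries were just below those of 0 h and overlapped each other, and those of 120 h overlapped 0 h. The changes were -1.44 at 6 h, -1.13 at 12 h, -0.26 at 24 h, -0.22 at 48 h and 0.06 at 120 h.

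Another 2 transcripts carried the same protein name, and the closest database entries of the 3 are variants of a single gene of *Populus euphratica*. Reads that fit more than 1 of them are divided by the quantification, so the level of each alone is uncertain. f3p60_1097_29028 was the main form, with 54.88, 51.95 and 54.40 FPKM at 6 h and 57.7, 43.9 and 59.0 FPKM at 12 h, against 136, 126.5 and 135 FPKM at 0 h. f2p22_763_32729 had 12.9, 12.9 and 12.9 FPKM at 6 h and 12.1, 12.2 and 12.9 FPKM at 12 h, against 36.6, 28.1 and 27.3 FPKM at 0 h. Both fell at 6 and 12 h, by 1.29 and 1.31 for the main form (limma adjusted p = 6.87e-09 and 9.29e-09) and by 1.17 and 1.23 for the other (limma adjusted p = 7.71e-08 and 7.21e-08), and neither was called later. Both were on the study's list of changed transcription factors, so this is not independent evidence.

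The 3 MADS18 transcripts together summed to 71.0 ± 1.76 FPKM at 6 h and 71.6 ± 8.73 FPKM at 12 h, against 177 ± 9.05 FPKM at 0 h (SD, n = 3 each). The sum was 136 ± 5.80 FPKM at 24 h, 162 ± 4.27 FPKM at 48 h and 171 ± 7.96 FPKM at 120 h. f2p60_940_30685 held 6.16% of the sum at 6 h and 7.70% at 0 h, and its mean share at the other times was between 7.15% and 8.38%. The main form held 73.5% to 75.7% at every time, so the make-up of the sum moved little while its size changed.

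**Figure D3:**
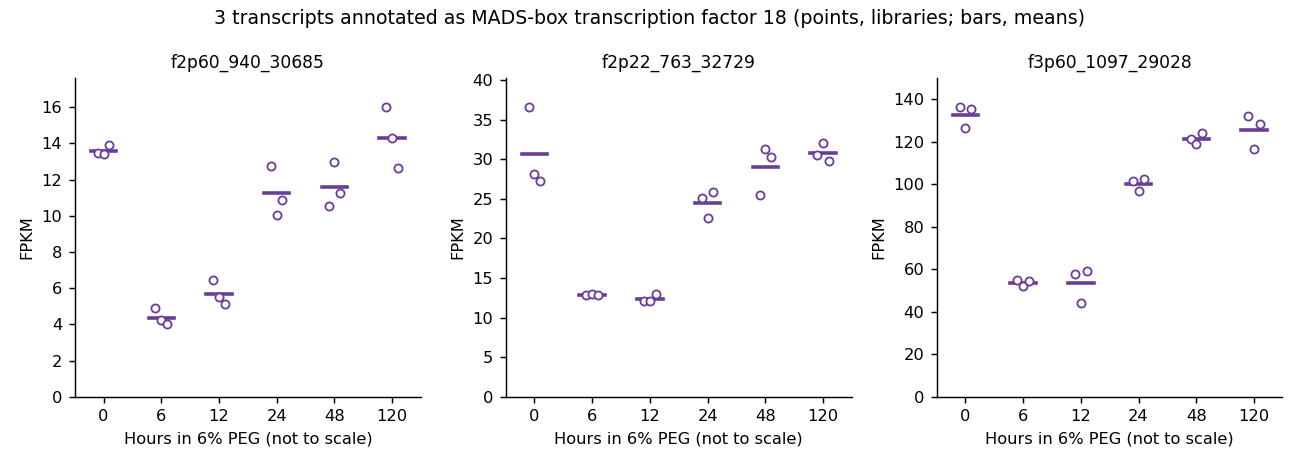
FPKM of the 3 transcripts annotated as MADS-box transcription factor 18 in each library (open points) by hours in 6% PEG, with means of 3 as bars; each panel has its own scale from 0. All 3 are lowest at 6 and 12 h, with sums of 71.0 and 71.6 FPKM against 177 FPKM at 0 h, and near the 0 h level at 120 h.

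Other values were also lower at 6 and 12 h than at 0 h, as IAA14, TCP4 and MADS18 were, but their later courses differed. The 7 root markers summed to 501 to 517 FPKM at 6 h, 363 to 395 FPKM at 12 h and 405 to 429 FPKM at 24 h, against 1484 to 1550 FPKM at 0 h. Of the 7, 5 were called lower at 6 h, 6 at 12 h and 5 at 24 h, and none was called higher. Over all tested transcripts, 5.34%, 3.59% and 1.81% were called lower at these times. All but CYP86A1 are nitrate or ammonium transporters, and CYP86A1 was called lower at 6 h alone. It had 72.92, 80.14 and 78.17 FPKM at 12 h, against 64.25, 67.38 and 67.31 FPKM at 0 h. At 24 h it had 76.98, 78.39 and 71.18 FPKM, again above every 0 h library. At 120 h it was below them, with 35.51, 35.52 and 34.04 FPKM. At 48 h, with 2 called lower, the sum was 895 to 914 FPKM, and at 120 h, with none called, 1119 to 1565 FPKM. Lower calls over all tested transcripts were 1.85% at 48 h and 2.14% at 120 h. The 2 called at 48 h were nitrate transporters, NRT2.1 with 246.62, 245.34 and 70.15 FPKM and NRT2.4 with 73.86, 78.9 and 20.25 FPKM. Replicate 3 was far below its partners in both, and the calls without it are not given. It was far above them in ammonium transporter f2p31_1645_6180 (191.55, 175.89 and 368.75 FPKM) and CYP86A1 (35.45, 34.98 and 93.69 FPKM), which the sum hides. The photosystem and chlorophyll list summed to 1023 to 1121 FPKM at 6 h and 1639 to 1706 FPKM at 12 h, against 2341 to 2440 FPKM at 0 h, with 9 of its 19 transcripts called lower at 6 h, 1 called lower at 12 h and none called higher at either time. These counts stand beside 5.34% and 3.59% of all tested transcripts called lower at 6 and 12 h. At 48 and 120 h its sum was higher, 3123 to 3430 and 3483 to 4561 FPKM, with 1 of the 19 called higher and none lower at each of these times. Higher calls over all tested transcripts were 3.23% at 48 h and 2.59% at 120 h. The 4561 FPKM were those of replicate 1 at 120 h, beside 3536 and 3483 FPKM in its partners. LHY, a core factor of the circadian clock, was chosen for a look after its values were seen. Its transcript f2p60_925_30878 averaged 50.1 FPKM at 0 h, 7.10 at 6 h, 9.81 at 12 h, 71.2 at 24 h, 84.02 at 48 h and 103 FPKM at 120 h. The second LHY transcript, f4p60_3026_19232, averaged 23.6, 4.53, 5.83, 37.5, 47.4 and 48.5 FPKM at these times. By the study's methods the roots of all treatment times were collected at a common time, and the hour of the day is not given in the sources used here. The part of the light cycle, of green tissue or of the root cell types behind these markers in the levels of IAA14, TCP4 and MADS18 was not tested.

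SBH1 was the lowest of the 4 and the 1 that was higher in PEG. It read 0.53, 0.21 and 0.3 FPKM at 0 h, a mean above only 1.17% of the tested transcripts. No 0 h library reached 1 FPKM, so SBH1 entered the tested set through PEG libraries alone, where it was higher. At 6 h it read 0.83, 0.51 and 1.38 FPKM and at 12 h 1.08, 1.25 and 1.28 FPKM. The 6 h libraries overlapped those of 0 h and the 12 h libraries were all above them.

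SBH1 reached 2.53, 2.22 and 2.64 FPKM at 24 h and 2.63, 2.8 and 3.01 FPKM at 48 h, and stood at 2.3, 1.33 and 1.89 FPKM at 120 h. All 9 of these libraries were above every library of 0 and 12 h, by a narrow margin at 120 h, where the lowest library had 1.33 FPKM and the highest of 12 h 1.28 FPKM. The libraries of 6 and 120 h overlapped, as the highest of 6 h had 1.38 FPKM. Mean levels were 7.11 times that of 0 h at 24 h, 8.12 times at 48 h and 5.31 times at 120 h. In order of level the times ran 0, 6, 12, 120, 24 and 48 h, and of the neighbours in this order 12 and 120 h alone did not overlap.

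On the log2(FPKM + 1) scale the changes of SBH1 were 0.48 at 6 h, 0.72 at 12 h, 1.37 at 24 h, 1.51 at 48 h and 1.07 at 120 h. With 0.1 added in place of 1 they were 1.14, 1.60, 2.58, 2.77 and 2.15, so the size depends on the amount added, and the direction did not. SBH1 was below 1 FPKM in 5 libraries, where few fragments lie behind a value. Among transcripts within 100 bp of its length, the lowest value above 0 in a library was 0.04 to 0.13 FPKM.

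The other 7 homeodomain transcripts measured were all in the study's list of changed transcription factors, so their counts are not independent evidence. At 6 h 4 of 7 rose and none fell (12.3% of all transcripts called), at 12 h 3 rose and 1 fell (9.32%), and at 24, 48 and 120 h 1 rose at each time (6.24%, 5.08% and 4.74%). Their median change was 1.08 at 6 h and 0.90 at 12 h, beside 0.01 and -0.04 over all transcripts. Over all times 6 of the 7 rose at least once and 1 fell, where 10.6% of all tested transcripts were called higher at 1 or more times and 8.2% lower. The count at 120 h became 2 without replicate 2 or 3 of 0 h or without replicate 1 or 3 of 120 h, when the second ATHB-7 transcript was called too (1.01 to 1.16).

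The 3 BLH1 transcripts encode BELL proteins, the partner class of KNOX proteins such as SBH1. f2p30_2928_1805 had 18.99, 22.34 and 19.25 FPKM at 6 h and 18.3, 17.1 and 18.3 FPKM at 120 h, against 7.88, 8.06 and 7.66 FPKM at 0 h, with changes of 1.25 (SE 0.16, limma adjusted p = 6.18e-06) and 1.09 (adjusted p = 8.39e-05). At 48 h it had 20.7, 20.9 and 11.4 FPKM, replicate 3 being far below its partners, and the call there (change 1.03) ended without replicate 1 (0.90) or replicate 2 (0.89). f2p60_2894_1826 averaged 69.5 ± 4.91 FPKM at 6 h and 29.04 ± 0.731 FPKM at 0 h (SD, n = 3 each) and was called at 6 h alone. f2p60_3018_19255 was called at 12 h (1.22) and 24 h (1.07), and at 6 h its libraries spread over 45.72, 75.02 and 63.16 FPKM. All 3 transcripts kept every PEG library above the 0 h libraries at all 5 times, as did 5.7% of all tested transcripts. The call of f2p60_3018_19255 at 24 h ended without replicate 1 of that time (0.97).

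The homeodomain-leucine zipper transcripts were called at 6 and 12 h. ATHB-7, a factor induced by water deficit and abscisic acid in *Arabidopsis*, had 12.2, 11.4 and 12.3 FPKM at 6 h and 26.4, 28.4 and 28.8 FPKM at 12 h for f2p60_1403_7712, against 4.95, 4.89 and 5.6 FPKM at 0 h. Its changes were 1.08 (limma adjusted p = 5.14e-05) and 2.23 (adjusted p = 3.53e-08), and from 24 h on its libraries overlapped those of 0 h. The second ATHB-7 transcript, f2p60_859_12333, averaged 5.23 ± 1.12 FPKM at 12 h and 1.01 ± 0.521 FPKM at 0 h (SD, n = 3 each) and was called at 12 h (1.65). ATHB-8, a factor of vascular tissue, had 61.2, 67.2 and 67.5 FPKM at 6 h, against 29.7, 26.1 and 28.1 FPKM at 0 h (change 1.2, limma adjusted p = 1.81e-09), and its later changes were between -0.01 and 0.13. HOX33, of the same class as ATHB-8, had 15.5, 17.4 and 18.6 FPKM at 12 h, against 38.1, 32.1 and 39.4 FPKM at 0 h (change -1.05, limma adjusted p = 2.86e-07). That call ended without replicate 3 of 0 h (-0.99) or replicate 1 of 12 h (-0.98).

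**Figure D4:**
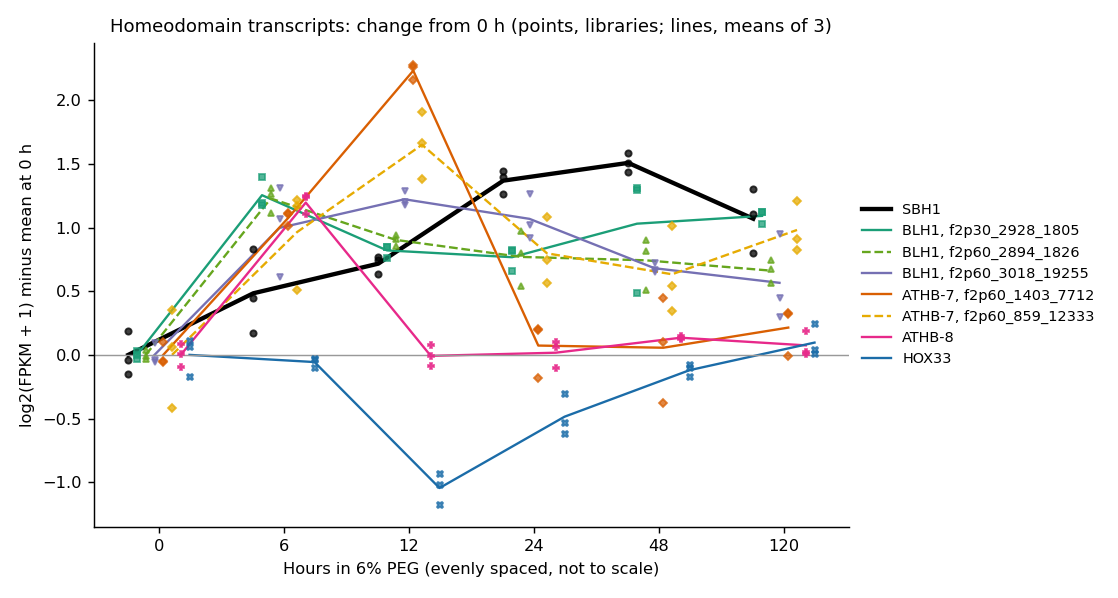
Change of SBH1 (thick black line) and 7 other homeodomain transcripts from their mean at 0 h on the log2(FPKM + 1) scale, by hours in 6% PEG (evenly spaced); points are libraries and lines join means of 3. SBH1 peaks at 48 h (1.51), ATHB-8 and 2 of the BLH1 transcripts at 6 h, the third BLH1 and both ATHB-7 transcripts at 12 h, and HOX33 is lowest at 12 h (-1.05).

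Transcripts of other growth hormones and of patterning were fewer. Of 6 cytokinin transcripts, 3 receptors came from the annotation table, and limma called none. Their changes were between -0.37 and 0.09 at all times, and 1 of the 3, lower, had an unadjusted p under 0.05 at each time. The other 3 came from the study's lists of changed genes, so their calls are not independent evidence. ARR8, a response regulator that dampens cytokinin signaling, fell at 6 h, with 35.21, 39.95 and 38.07 FPKM against 85.3, 85.5 and 84.8 FPKM at 0 h (change -1.16, limma adjusted p = 1.33e-06). The 2 ABCG14 transcripts, for a carrier that sends cytokinin from root to shoot in *Arabidopsis*, rose at 24 h, by 1.17 (f5p60_2308_3207) and 1.05 (f2p60_2367_20734). The second of these calls ended without replicate 1 of 24 h (0.94).

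Of 6 transcripts for gibberellin and brassinosteroid metabolism and GRAS factors, 3 were called lower at 1 or more times and none higher. From the study's lists of changed genes came 4 of the 6, so this count is not independent evidence. Of all tested transcripts, 8.2% were called lower at 1 or more times and 10.6% higher. SCL5, a GRAS factor with a change of 0.98 at 6 h, was called higher there without replicate 1 of 0 h or of 6 h (1.01 each) and with a smaller amount added. DELLA protein GAI1, a repressor of gibberellin responses, had 20.6, 21.1 and 22.6 FPKM at 6 h, against 69.3, 76.1 and 72.1 FPKM at 0 h (change -1.71, limma adjusted p = 6.42e-12), and was also called at 24 h (-1.14). At 12 h it was called lower without replicate 1 of 0 h or replicate 2 of 12 h (-1.02 each) and with 0.1 added (-1.01). The GRAS factor SCL33 was called lower at 12 h without replicate 3 of 0 h (-1.01) and with a smaller amount added. CYP734A1, which inactivates brassinosteroids in *Arabidopsis* and came from the annotation table, fell at 6 h (-1.03) and 120 h (-1.04). The first call ended without replicate 1 of 6 h (-0.99) and the second without replicate 2 or 3 of 120 h (-0.96 each). The GRAS factor CIGR1 fell at 48 h (-1.09) and 120 h (-1.08).

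ACAULIS5, the thermospermine synthase that restrains xylem differentiation in *Arabidopsis*, had 26.8, 28.8 and 28.6 FPKM at 6 h, against 12.49, 13.51 and 12.62 FPKM at 0 h (change 1.07, limma adjusted p = 2.06e-07). Both ACAULIS5 and YABBY 5 came from the study's lists of changed genes, so their changes are not independent evidence. Axial regulator YABBY 5 had 0.73, 1.33 and 1.79 FPKM at 12 h and 2.55, 3.06 and 0.0 FPKM at 48 h, against 0.07, 0.0 and 0.08 FPKM at 0 h. It was below 1 FPKM in every 0 h library and entered the fit through 5 PEG libraries, so no p is given for it, and replicate 3 at 48 h is listed at 0. Over the 7 lists, 31 of the 41 transcripts were called at 1 or more times, or 30 of 40 without YABBY 5, where 18.5% of all tested transcripts were. Of the 41, 30 came from the study's lists of changed genes and 11 from the annotation table. None of these 11 was called higher. With an unadjusted limma p under 0.05, 2 of them were higher at 6, 12, 24 and 120 h and 1 at 48 h. All 3 libraries lay above 0 h at all 5 times for 1 of the 11, and for 5.7% of all tested transcripts. The calls were 2 lower at 6 h, 2 lower at 12 h and 1 lower at 120 h, where 5.34%, 3.59% and 2.14% of all tested transcripts were called lower. Over all times 3 of the 11 were called (27.3%), beside the 18.5% over all transcripts. At 24 and 48 h none of the 11 was called, while 9 at 24 h and 6 at 48 h had an unadjusted limma p under 0.05.

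The course of each regulator was set beside the 667 other transcripts that had a protein name and a mean of at least 1 FPKM. Likeness was the root mean square difference between 2 courses of log2(FPKM + 1), each centred on its mean over the 18 libraries, so that a smaller value means a closer course. Most of these names come from tables of changed genes, so the search covers a selected part of the table. Nearest to IAA14 were the 22B transcript f2p60_1154_28359 (0.19), AUX28 (0.20) and amino acid permease 2 (f2p31_1944_22326, 0.21), where the root mean square size of the IAA14 course itself was 0.57. These 3 remained the nearest when any library was left out.

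Nearest to TCP4 were lipoxygenase 6 (f2p14_3240_18921, 0.20), catalase isozyme 1 (f12p60_1963_4769, 0.20) and CONSTANS-LIKE 4 (f8p60_1473_7558, 0.21), and the size of its own course was 0.50. For MADS18 (own size 0.59) they were its 2 sister transcripts (0.18 each) and CONSTANS-LIKE 4 (0.18). Reads that fit more than 1 of the MADS18 transcripts are divided among them, so the courses of the sisters are not independent of its own. CONSTANS-LIKE 4, a zinc finger protein, averaged 67.7 FPKM at 6 h and 87.8 FPKM at 12 h, against 154 FPKM at 0 h. Nearest to SBH1 were an NADPH-dependent aldehyde reductase (f3p60_1057_29440, 0.25), ethylene-responsive transcription factor 6 (f2p60_1376_26205, 0.27) and protein SRC1 (f4p60_678_14205, 0.29), and the size of its own course was 0.54. Among the 4 regulators themselves, TCP4 and MADS18 were the closest pair (0.26) and IAA14 and SBH1 the most distant (0.89). All courses come from the same 18 libraries, and these values are a description with no test.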

How the data were processed

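Root RNA of 18 samples was sequenced. The authors mapped clean paired-end reads to consensus transcripts from PacBio sequencing of the same samples with RSEM 1.2.31 and deposited FPKM values; the submitters' processing notes also name HTSeq 0.6.0. RSEM divides reads that fit several transcripts, and the number of fragments per library was not used here, so precision is described by replicate spread. Column codes without times were read as 0 h and then the treated times in their numbered order. This reading gave the best match to printed fold changes among 120 orderings over 122 transcripts, and 0 columns were left unused.

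The 12080 transcripts that reached 1 FPKM in 3 or more libraries were fitted as log2(FPKM + 1) in limma 3.58.1 (R 4.3.3) with time as a factor, 12 residual degrees of freedom, an intensity trend and robust moderation. Each time was compared with 0 h, so all 5 comparisons share 3 libraries. A call needed a Benjamini-Hochberg adjusted p under 0.05 over all transcripts tested and an absolute log2 change of at least 1, the study's fold minimum. The fit was tested on simulated data. Python 3.11.15 with pandas 2.3.3, numpy 2.4.6 and matplotlib 3.10.9 made the tables and figures.

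The 4 regulators and the 7 lists of 41 other transcripts were chosen with earlier results of these data known. Names come from the supplementary annotation, which names 683 transcripts here. Named transcripts are the 4 regulators, every Aux/IAA, MADS and homeodomain transcript, and the 3 nearest to each regulator by course. Those of other lists are named where called at 1 or more times under any setting, or where flagged below. LHY was added after its values were seen. Green tissue and root marker lists are given as sums. Alternatives were added amounts of 0.1 and 0.5, no filter, median ratio scaling, no trend or robust moderation, a replicate block, and leaving out each library. The search for nearest transcripts under these settings was added after seeing the data. No sequence of these transcripts was at hand, so none is printed.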

Additional observations from a re-analysis of the deposited data

Results flagged for a closer look

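In 4 of the 45 transcripts described, all 3 libraries lay above those of 0 h at some times and all 3 below them at another, which held for 21.8% of all tested transcripts. IAA27 changed by 1.22 at 6 h and by -0.19 at 120 h, a difference of 1.41. ABCG14 (f5p60_2308_3207) changed by 1.17 at 24 h and by -0.28 at 6 h, a difference of 1.44. ABCB4 changed by 0.26 at 12 h and by -0.47 at 120 h, a difference of 0.73. Ent-kaurenoic acid oxidase 1, an enzyme of gibberellin synthesis, changed by 0.35 at 24 h and by -0.32 at 12 h, a difference of 0.68. These differences between times were not tested, and none of the 4 regulators was among them.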

How the results depend on the processing

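The counts of called transcripts over the whole table (1490 at 6 h, 1126 at 12 h, 754 at 24 h, 614 at 48 h and 572 at 120 h), the 9 combinations of regulator and time past 1 on the log2 scale and the 31 list transcripts called stayed within 1.5 times under every alternative run, and no change of a regulator past 1 turned its direction. With 0.1 added, 11 combinations passed 1 and 33 list transcripts were called, and with 0.5 added 10 and 33. Of 120 changes of the regulators under settings that kept all libraries, 15 moved by more than the replicate spread, all with a smaller amount added. The 120 include no filter, no trend or robust moderation and the replicate block, which leave each change as it is. With 1 of 3 libraries left out a mean cannot shift by that spread. The count of 0 in 360 for libraries left out was thus fixed in advance, and nothing is read from it. Leaving out 1 library gave 8 to 9 combinations, 30 to 32 list transcripts, and 556 to 724 calls at 48 h, highest without replicate 3 of 48 h. At 48 h the 4 calls in the lists became 2 without replicate 1, 2 without replicate 2 and 5 without replicate 3. Of the 50 list calls, 10 were lost under at least 1 setting, and 12 others were gained under at least 1, 9 of them with a library left out. The calls of YABBY 5 at 12 and 48 h are in these tallies, though it entered the fit through PEG libraries alone. Of the 3 transcripts nearest to a regulator, 1 was shared for TCP4 with 0.1 or 0.5 added and 1 for SBH1 with 0.1 added, and in all other settings at least 2 were shared.

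The numbers 1 to 3 name replicates in the labels, and libraries of the same number did not deviate together. The correlation of their deviations over 45 pairs was -0.13 to 0.10, with a median of -0.02 beside 0.01 for unlike numbers. With the replicate number as a block, 1487 transcripts were called at 6 h, 1130 at 12 h, 751 at 24 h, 613 at 48 h and 568 at 120 h. Of the list transcripts 30 were called, YABBY 5 being the one lost. The 9 combinations past 1 had to stay, since such a block leaves the changes as they are. SBH1 at 0 h and YABBY 5 rest on values near the lowest listed, which limits their precision.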
